A study of Mus musculus with 2 samples.

Results

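Interferon response and antigen presentation genes were followed in the corneal epithelium of mice with 1 dry eye each. The list held 34 genes chosen by name, and 33 of them were among the 17891 genes of the deposited table. Mx1 was not analysed here. They fell into 17 type I-type genes, which answer mainly to interferon alpha and beta, 8 gamma-type genes, which answer strongly to interferon gamma, and 8 genes of class I antigen presentation. The names of these groups describe known responses and not a signal measured here, since many of the genes answer to more than 1 interferon.

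The animals were male C57BL/6J mice aged 10 weeks, 7 in number, with no transgene named. The dry eye library pooled the corneal epithelium of 6 right eyes, whose extra- and intra-orbital lacrimal glands had been excised 9 days earlier, and the control library pooled that of the 7 left eyes of the same mice. Side of the eye and treatment therefore cannot be told apart, and each control eye came from an animal that had been operated on. Each library was made from single cells by the 10x Genomics 3' method and counted in unique molecular identifiers (UMIs), with 191493194 UMIs in 17465 control cells and 207030777 UMIs in 16420 dry eye cells. The median cell had 8248 UMIs in control and 9086.5 in dry eye, and 74 cell barcodes occurred in both libraries. With 1 library per group there is no replicate check and no test. Ratios of dry eye over control carry exact 95% intervals, which hold the error of counting alone. All 6 listed epithelial markers (Krt5, Krt12, Krt15, Epcam, Cdh1 and Pax6) were detected in both libraries. The authors' annotation sorted the cells into 13 classes, among them Basal, LSC, TAC1, TAC2, Wing, Squam, Conj and Immune, and 5 further classes with an asterisk whose meaning is not stated.

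Interferons are secreted proteins that bind receptors on the cell surface and act through JAK kinases and STAT transcription factors. The type I response brings up enzymes and binding proteins that block viral RNA and its translation, together with feedback inhibitors. Interferon gamma brings up guanylate-binding proteins, the transcription factor Irf1 and the parts of the class I pathway, in which the immunoproteasome cuts proteins into peptides, the TAP transporter carries them into the endoplasmic reticulum, and class I heavy chains with B2m show them at the cell surface. Barrier epithelia such as the cornea can carry a low resting level of these genes.

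Promoter sequence was set beside the levels, because genes of this response are known to be bound by IRF and STAT factors at short DNA motifs upstream of their starts. RefSeq promoters of build GRCm38.p6, running from 250 bases before to 50 bases after the start, were matched for 27 members. The core of the interferon-stimulated response element was searched on both strands as GAAA, any 2 bases and GAAA again. It occurred in 7 of 13 type I-type genes (Isg15, Ifit1, Ifit3, Ifit3b, Oas1a, Bst2 and Rsad2), in 4 of 6 gamma-type genes (Gbp2, Gbp3, Gbp7 and Igtp) and in 1 of 8 class I genes (B2m), against 3.44% of all 32851 promoters in the table. The gamma-activated site, searched as TTCNNNGAA, occurred in 4 of 13, 3 of 6 and 1 of 8, against 8.30% of all promoters. The short motif GGAAA, which can overlap both, occurred in 12 of 13, 5 of 6 and 5 of 8, against 61.3%. A member was counted if any of its promoters had a match, while the percentages are of single promoters, so the units differ. For the 6 members with the core and the most UMIs, 60 bases are printed on the gene's own strand, 5′ to 3′, with matches to the core on either strand in capitals.
B2m: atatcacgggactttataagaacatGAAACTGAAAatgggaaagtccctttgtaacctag
Isg15: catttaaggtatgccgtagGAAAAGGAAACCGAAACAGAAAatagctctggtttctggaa
Ifit3: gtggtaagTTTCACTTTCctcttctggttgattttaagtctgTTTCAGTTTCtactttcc
Ifit3b: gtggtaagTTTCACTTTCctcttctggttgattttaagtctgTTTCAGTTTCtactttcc
Ifit1: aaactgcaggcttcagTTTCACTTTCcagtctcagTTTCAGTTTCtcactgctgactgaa
Gbp2: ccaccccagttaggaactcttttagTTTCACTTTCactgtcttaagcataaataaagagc

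The windows lie upstream of the start at chr2:122147523-122147582 (plus strand) for B2m, chr4:156200856-156200915 (minus strand) for Isg15, chr19:34583365-34583424 (plus) for Ifit3, chr19:34607761-34607820 (plus) for Ifit3b, chr19:34640769-34640828 (plus) for Ifit1 and chr3:142620579-142620638 (plus) for Gbp2. Isg15 had 3 overlapping matches, the first beginning 78 bases before the start. Ifit1, Ifit3 and Ifit3b had 2 matches each, both on the strand opposite to the gene. All 60 of the 60 bases shown were identical between Ifit3 and Ifit3b, which are near-identical copies, so their reads may have been split between them and their separate values are uncertain. A match is a description of the letters and not a measured binding site.

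Over all cells, 15 of 17 type I-type genes had ratios of dry eye over control below 1, as had 8543 of all 13997 genes compared, and the medians of gamma-type and class I genes were close to that of all genes. Levels are in CPM, a gene's UMIs scaled to the total of the library or class. Genes with at least 50 UMIs over both libraries were compared, which took in 31 members, and 1.5-fold was the size counted as a difference. Of 17 type I-type genes, 6 were at least 1.5-fold lower and 1 at least 1.5-fold higher, with a median log2 ratio of -0.30. Of 13997 genes compared in all, 5.87% were as much lower and 7.94% as much higher, with a median of -0.07. Of 6 gamma-type genes 1 was lower and 0 higher (median 0.02), and of 8 class I genes 0 passed in either direction (median -0.04). In pooled cells, fewer expressing cells and less RNA per cell cannot be told apart from these sums.

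Among type I-type effectors, Isg15, a ubiquitin-like protein that is attached to viral and cellular proteins, stood at 44.8 CPM in control against 29.8 in dry eye, a ratio of 0.665 (0.644 to 0.687). Ifit3, which acts with Ifit1 in binding foreign RNA, stood at 39.1 and 23.4 CPM, a ratio of 0.599 (0.577 to 0.621). Its copy Ifit3b, also on chromosome 19, stood at 30.1 and 18.5 CPM, a ratio of 0.614 (0.589 to 0.640). Ifit1, which binds RNA lacking the cap methylation of the host, stood at 30.0 and 20.1 CPM and at 0.670 (0.644 to 0.698) lay just on the other side of the 1.5-fold line. The intervals of Ifit3 and Ifit3b overlapped, as did those of Isg15 and Ifit1. Ifi44 stood at 3.20 and 1.88 CPM, a ratio of 0.587 (0.516 to 0.668). Rtp4, a chaperone of G protein-coupled receptors that interferon also brings up, stood at 13.9 and 9.63 CPM, a ratio of 0.691 (0.651 to 0.732).

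The feedback inhibitor Usp18, a protease that removes Isg15 from proteins and blocks the type I receptor, stood at 3.42 CPM in control against 1.55 in dry eye, with a ratio of 0.453 (0.395 to 0.518). Rsad2, the antiviral enzyme viperin, had only 131 and 45 UMIs, in 39 and 20 cells. Its ratio of 0.318 thus rests on few cells, and the 10 cells richest in it held 67.9% of its control UMIs and 77.8% of its dry eye UMIs. Ifit2 was the member past 1.5-fold in the other direction, at 127 and 257 UMIs and a ratio of 1.87 (1.51 to 2.33). In contrast to Rsad2, Ifit2 was spread thinly, with at most 3 UMIs in a control cell and 4 in a dry eye cell.

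The other type I-type genes differed less. Irf7, the factor that amplifies the type I response, was at 44.3 and 35.9 CPM (0.810, 0.785 to 0.835), Xaf1, a promoter of cell death, at 19.8 and 16.1 (0.810), Ifi35 at 83.1 and 71.0 (0.854) and Bst2, which tethers budding virus particles, at 8.72 and 7.49 (0.860). Oasl2, a relative of the RNA-sensing oligoadenylate synthetases, was at 62.4 and 61.0 CPM, with a ratio of 0.976 (0.952 to 1.001). Oas1a, an oligoadenylate synthetase, was at 4.27 and 4.0 CPM (0.939, 0.851 to 1.03), Parp14, an ADP-ribosyltransferase, at 17.1 and 16.3 (0.95) and Ifi27l2a at 9.86 and 9.96 (1.01, 0.948 to 1.07). The genes of this group thus ran from 0.318 to 1.87 and did not share 1 ratio.

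**Figure D1:**
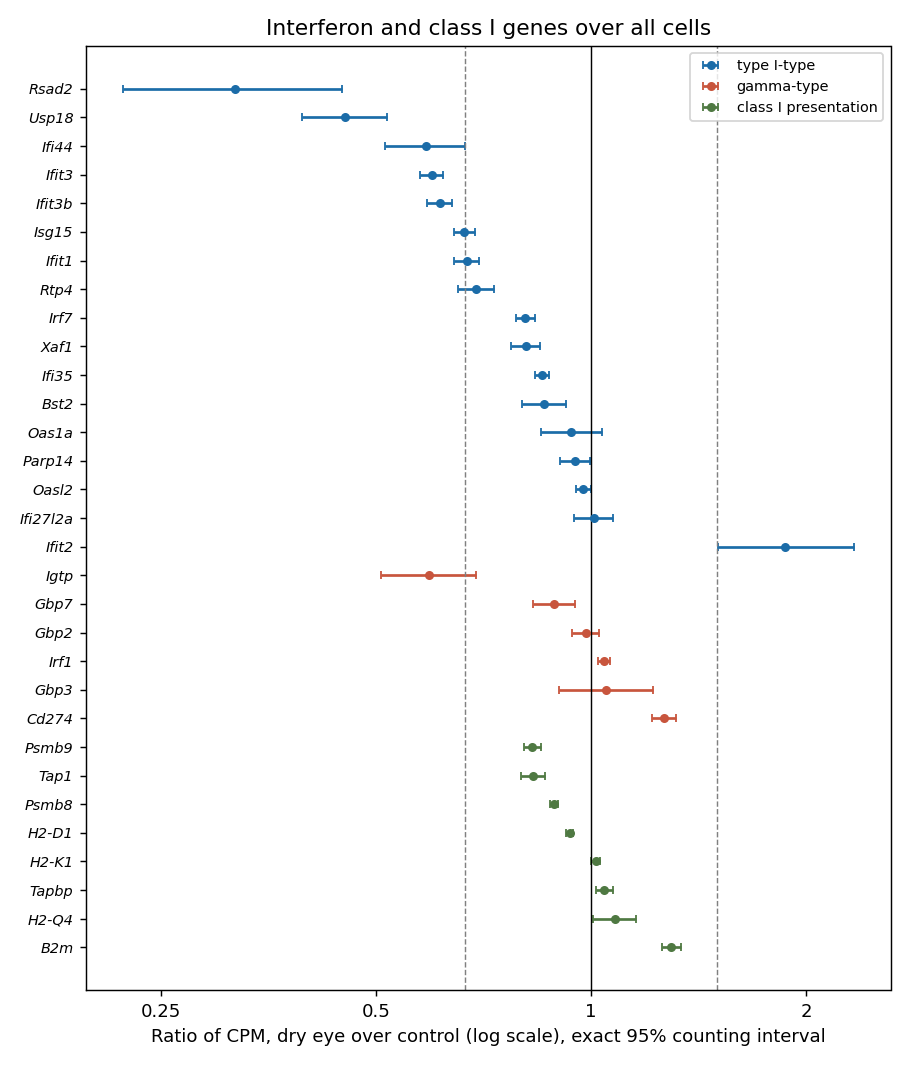
Ratio of CPM in dry eye over control for each of the 31 compared genes over all cells, on a log axis, with bars for the exact 95% counting interval and colours for the 3 groups. Dashed lines mark 1.5-fold either way, and 6 type I-type genes and Igtp lie beyond the lower line while Ifit2 lies beyond the upper one.

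Gamma-type genes gave no common direction. Irf1, a transcription factor of the gamma response, was at 112 CPM in control and 117 in dry eye (1.04, 1.02 to 1.06). Cd274, which encodes the checkpoint ligand PD-L1, was at 23 and 29.1 CPM, a ratio of 1.27 (1.22 to 1.32). Igtp, an immunity-related GTPase, was at 2.29 and 1.36 CPM, a ratio of 0.593 (0.509 to 0.691). The guanylate-binding proteins Gbp2, Gbp3 and Gbp7 had ratios of 0.983, 1.05 and 0.888. Gbp genes resemble each other, so reads may have been shared among them. Iigp1, with 14 and 11 UMIs, and Nlrc5, the transactivator of class I genes, with 13 and 24 UMIs, were too sparse to compare.

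Class I genes lay between 0.828 and 1.30. The immunoproteasome subunits Psmb8 and Psmb9 were at 249 and 221 CPM (0.887) and at 61.5 and 50.9 CPM (0.828). Tap1, a subunit of the peptide transporter, was at 29.7 and 24.7 CPM (0.831), and Tapbp, the tapasin that loads peptide onto class I, at 56.0 and 58.5 (1.04). Psmb8 (chr17:34197721-34201454), Psmb9 (chr17:34181987-34187764) and Tap1 (chr17:34187553-34197225) are neighbours in the GENCODE annotation of GRCm38. The heavy chains H2-K1, H2-D1 and H2-Q4 had ratios of 1.02, 0.934 and 1.08. B2m, the light chain, encoded apart from the heavy chains, was at 36.9 and 47.8 CPM, with a ratio of 1.30 (1.26 to 1.34), and 22.6% of its dry eye UMIs lay in classes with an asterisk.

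Leukocytes also carry the class I machinery. The Immune class had 20 control and 31 dry eye cells. B2m reached 1382.5 CPM there in control against 1000.4 in dry eye, the highest of any class in either library. Yet Immune cells held at most 1.57% of the UMIs of any compared member in control and at most 0.922% in dry eye. The 8 leukocyte markers, all of them detected in both libraries, summed to 2.67 CPM over all control cells and 2.68 over all dry eye cells.

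Most of these genes had their highest level among the large epithelial classes in Squam cells. The classes were drawn from these same cells, so levels by class are a description. Isg15 was at 163 CPM in control Squam, 60.2 in Conj, 16.7 in Wing and 8.65 in LSC, and between 3.49 and 3.86 in Basal, TAC1 and TAC2. Oasl2 was at 233 CPM in control Squam and 3.82 in Basal, Irf1 at 424 and 17.8, Psmb8 at 709 and 27.1, and Cd274 at 111 and 0.891. In the control library 13 of 16 type I-type genes were at least 1.5-fold higher in Squam than in Basal and 1 lower, with a median log2 ratio of 4.56, where all genes had a median of -0.96 and 18.8% were higher and 60% lower. In the dry eye library 12 of 15 were higher and 2 lower, with a median of 4.40, beside 18.9% of all genes higher and 61.9% lower.

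The gamma-type and class I genes had the same order in most cases. Of 6 gamma-type genes 5 were higher in control Squam than in control Basal (median 4.10), as were 7 of 8 class I genes (median 1.62). Cd274 was 124-fold higher (83.3 to 194), Psmb8 26.1-fold, H2-D1 6.97-fold and H2-K1 2.50-fold. The Cd274 fold rests on 24 UMIs in 4230 control Basal cells. Levels this low may hold free RNA from the droplets, so the sizes of the highest folds are uncertain. B2m, at 42.9 CPM in control Squam and 38.7 in Basal, had a ratio of 1.11. Ifi27l2a ran the other way, at 1.62 CPM in control Squam, 25.9 in Basal and 75.2 in LSC. Bst2 and Usp18 were nearly level between control Squam and control Basal, at ratios of 0.884 and 1.20. In dry eye their Squam over Basal ratios were 0.678 and 0.655.

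**Figure D2:**
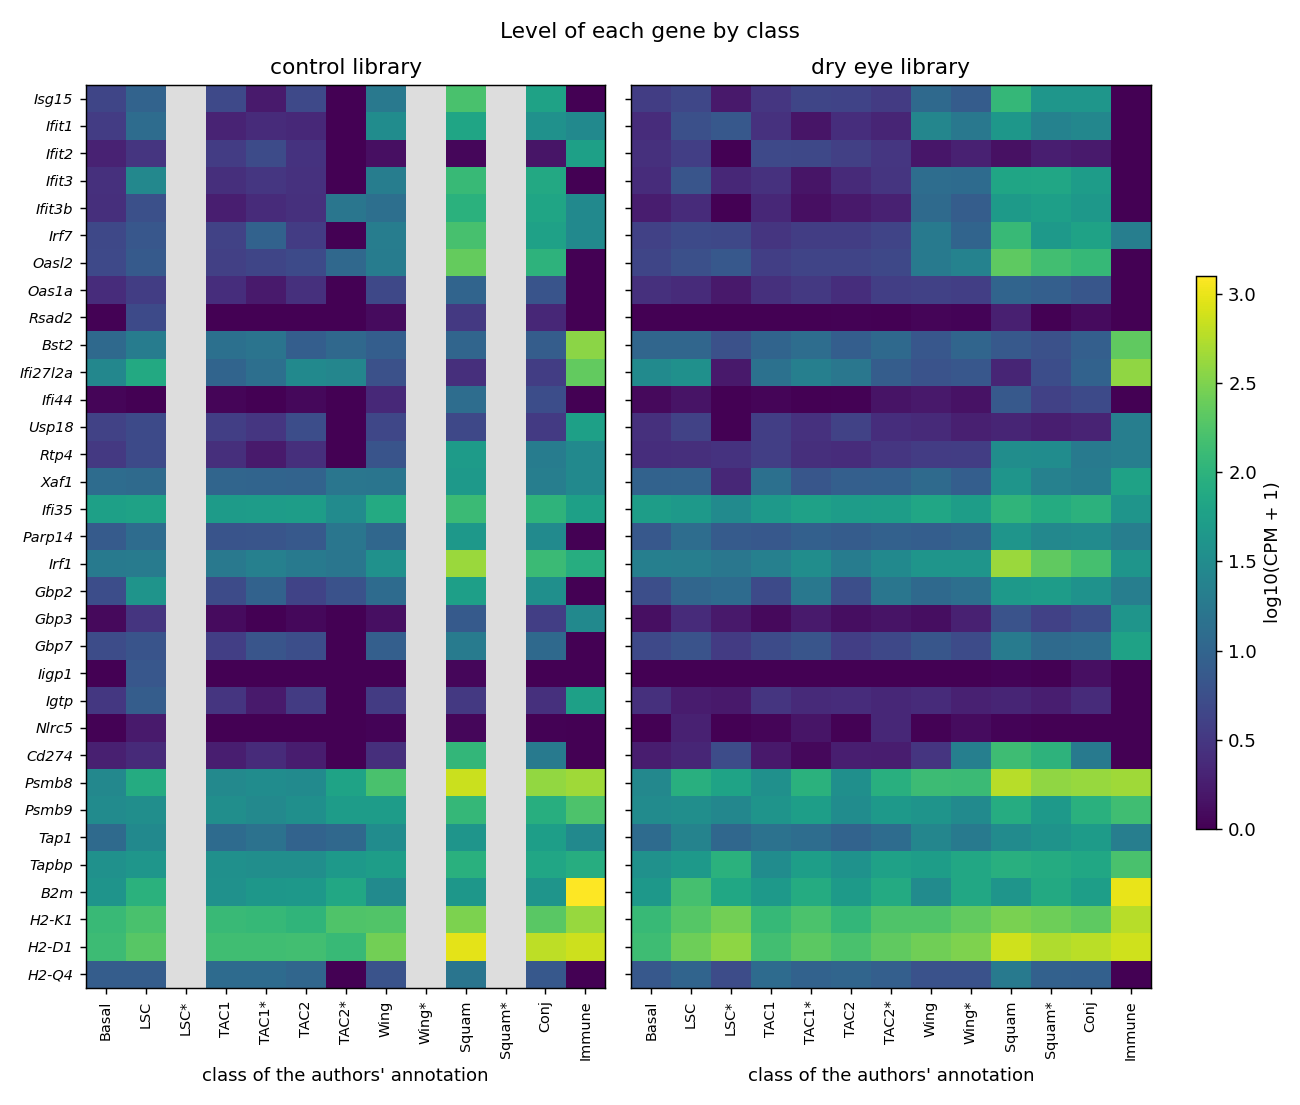
Level of each of the 33 genes in each class of the authors' annotation, in control (left) and dry eye (right), as log10(CPM + 1) by colour, with grey for classes under 20 cells. Squam and Conj columns are bright for most type I-type genes, Ifi27l2a is brightest outside them, and B2m peaks in Immune cells.

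Within Squam cells, 3056 in control and 2973 in dry eye, all 16 of the type I-type genes compared had ratios below 1, as had 7229 of all 9902 genes compared. At least 1.5-fold lower were 7 of 16 and 0 were higher, with a median log2 ratio of -0.53, beside 14.5% of all genes lower, 3.94% higher and a median of -0.20. Ifit3b was at 93.5 CPM in control and 48.2 in dry eye (0.515, 0.485 to 0.546), and Ifit3 at 121 and 65.7 (0.543, 0.515 to 0.571). Ifi44 was at 11.7 and 6.27 CPM (0.536), Rtp4 at 49.0 and 32.1 (0.654), Ifit1 at 64.9 and 42.7 (0.657) and Isg15 at 163 and 115 (0.706, 0.678 to 0.736). Usp18 was at 3.73 and 1.09 CPM (0.293, 0.199 to 0.424), and Rsad2 had 79 and 30 UMIs (0.378). Irf7 and Oasl2, at 0.784 and 0.915, differed less. Set against the median of all genes in Squam, a scaling chosen after seeing the data, 5 of the 16 were lower, 0 were higher, and 12 lay below 1, with Isg15 at 0.810, Ifit3 at 0.622 and Oasl2 at 1.05.

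Free RNA in the droplets was not removed by this count. It was bounded by taking off each gene's level in the class with the fewest UMIs per cell, and 9 of the type I-type genes in Squam were lower beyond that bound: Isg15, Ifit1, Ifit3, Ifit3b, Irf7, Oasl2, Rsad2, Ifi44 and Rtp4. Usp18, low in every class, was not. Leukocyte markers summed to 0.867 CPM in control Squam and 0.691 in dry eye Squam, with Ptprc, Rac2 and Lcp1 at 0 in both. The 6 conjunctival markers (Krt13, Krt4, Krt8, Krt19, Krt17 and S100a8), all detected, summed to 5176 CPM in control Squam and 8187 in dry eye Squam, and their part in the result was not tested.

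Gamma-type genes in Squam had 1 of 6 lower (Igtp, 0.485) and 0 higher, and class I genes 0 of 8 past 1.5-fold. Irf1 was at 424 and 430 CPM, a ratio of 1.01 (0.992 to 1.04), and Cd274 at 111 and 138, a ratio of 1.24 (1.19 to 1.30). Psmb9 was at 116 and 81.2 CPM (0.700, 0.667 to 0.734), Psmb8 at 709 and 589 (0.830) and H2-D1 at 933 and 758 (0.812), with H2-K1 at 0.955. Set against the same median, Psmb8 was at 0.952, H2-D1 at 0.931, H2-K1 at 1.09 and Cd274 at 1.43. Ifit3 and Cd274, both far higher in Squam than in Basal, thus had ratios on opposite sides of 1 in the same cells.

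Wing cells, 5651 in control and 3389 in dry eye, had 5 of 16 type I-type genes lower and 1 higher (median -0.30), beside 6.43% of all genes lower and 5.0% higher (median -0.14). The lower ones were Isg15 at 16.7 and 10.4 CPM (0.624), Ifit3 at 19.5 and 12 (0.614), Ifi44 (0.507), Rtp4 at 5.37 and 2.53 (0.472) and Usp18 at 3.56 and 1.35 (0.381). All but Usp18 passed the free RNA bound. Set against the median of all genes in Wing, 3 of the 16 were lower. Conjunctival markers, 6 of 6 detected, summed to 1645 CPM in control Wing and 2911 in dry eye Wing, and their part was not tested. Igtp was the 1 of 5 gamma-type genes lower (0.580), and 0 of 8 class I genes passed 1.5-fold in Wing.

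Conj cells, the class that carries conjunctival keratins, had 1 of 15 type I-type genes lower and 1 higher (median -0.11), beside 1.63% of all genes lower and 2.92% higher. The lower one was Usp18, on 48 and 27 UMIs (0.443), which did not pass the free RNA bound. Isg15 was at 60.2 and 42.1 CPM (0.698, 0.643 to 0.758), Ifit3 at 73.2 and 51.0 (0.697) and Ifit3b at 65.9 and 44.3 (0.672). These 3 were short of 1.5-fold but passed the bound. Oasl2 went the other way at 100 and 119 CPM (1.19, 1.13 to 1.26), as did Irf1 at 129 and 152 (1.18, 1.12 to 1.24). Ifi27l2a was at 2.65 and 8.53 CPM, a ratio of 3.22 (2.38 to 4.42). Gbp3 was the 1 of 6 gamma-type genes higher (1.60), and 0 of 8 class I genes passed.

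Basal cells had low levels of most type I-type genes, with 3 of 15 lower and 1 higher (median -0.22), beside 2.62% of all genes lower and 2.24% higher. The lower ones were Ifit1 (68 and 29 UMIs), Ifit3b (43 and 15 UMIs) and Usp18 (84 and 33 UMIs), and Ifit2 was higher (26 and 34 UMIs). For Ifit3b and Usp18 the free RNA bound could not be used here, since Basal was itself the control class that set it. Ifit1, whose bound was set by TAC1, and Ifit2 did not pass it. In TAC1 1 of 9 was lower and 1 higher, beside 2.25% and 2.39% of all genes. TAC2 had 1 of 11 lower and 1 higher, beside 4.32% and 3.14%. Gamma-type genes had 0 of 4 past 1.5-fold in Basal, 0 of 3 in TAC1, and in TAC2 2 of 4 lower (Gbp7 at 0.603 and Igtp at 0.607) and 0 higher. The type I-type gene lower in TAC2 was Ifi27l2a, at 29.0 and 16.0 CPM (0.551, 0.472 to 0.642), which passed the bound. Class I genes had 0 of 8 past 1.5-fold in Basal, TAC1 and TAC2.

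**Figure D3:**
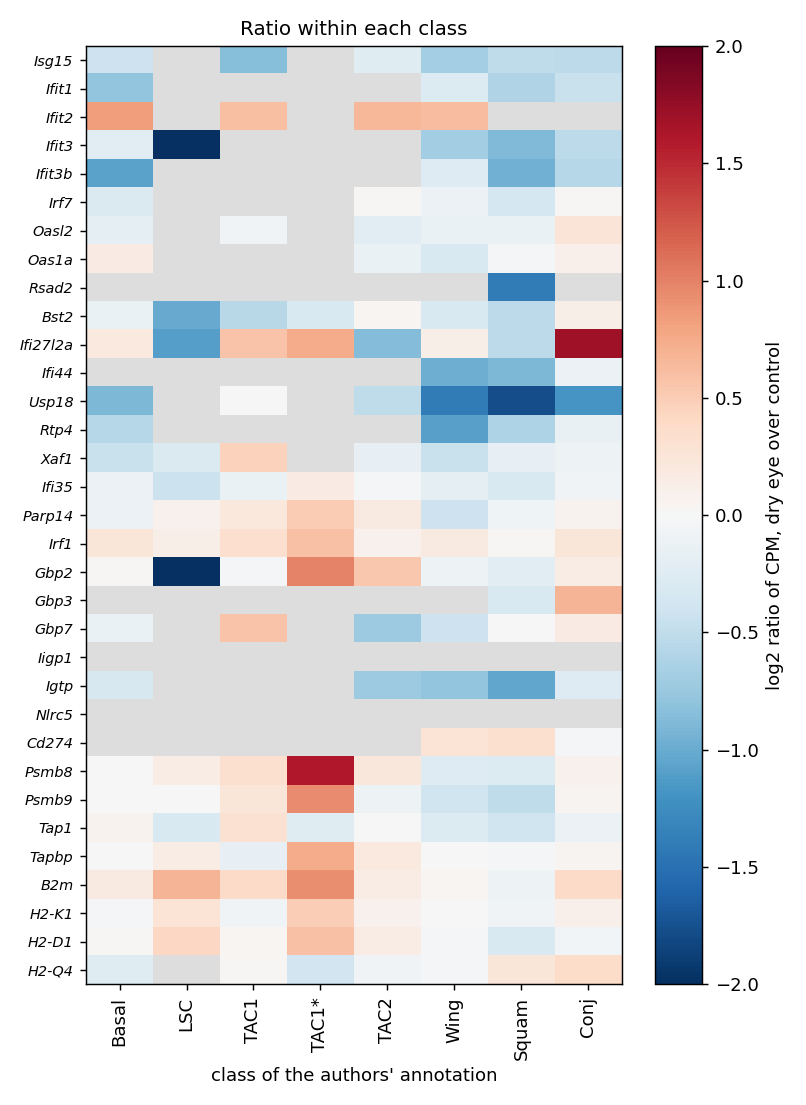
Log2 ratio of CPM in dry eye over control within each class that had at least 100 cells in both libraries, by colour, with grey where a gene had under 50 UMIs. The Squam column is blue for all 16 type I-type genes compared, the TAC1* column is red for Psmb8, Psmb9, Tapbp and B2m, and the 2 darkest LSC cells (Ifit3 and Gbp2) lie past the end of the colour scale.

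LSC cells, 267 in control and 592 in dry eye, showed how much a few cells could set a ratio. Of 6 type I-type genes compared 3 were lower and 0 higher, beside 7.87% of all genes lower and 4.35% higher. Ifit3 was at 27.3 and 5.62 CPM (0.206, 0.119 to 0.349), Ifi27l2a at 75.2 and 34.9 (0.464, 0.361 to 0.598) and Bst2 at 19.3 and 9.60 (0.498). However, the 2 control cells richest in type I-type UMIs held 23.2% of the 388 counted in the class, and 1 of them carried 14 of the 17 genes. In dry eye the 2 richest cells held 4.25% of 612. Without the 10 cells richest in each gene, a step that left Xaf1 and Parp14 higher (2 and 4 control UMIs), the ratios were 0.968 for Ifit3 (4 and 11 UMIs left), 0.893 for Ifi27l2a and 1.14 for Bst2, and 0 of the 6 genes were lower. Gbp2 in LSC, at 39.3 and 9.60 CPM (0.245, 0.160 to 0.371), had no control UMI left after the same step. The type I-type and Gbp2 values of control LSC cells thus rest on few cells. The step took 10 of 267 control cells but 10 of 592 dry eye cells, which by itself can raise a ratio.

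The control LSC* class was smaller still, with 6 cells, and 4 of them had at least 20 type I-type UMIs. The 2 richest held 58.0% of the 176 counted. In control LSC* the 17 type I-type genes summed to 2821 CPM, against 1138 in control Squam and 258 in control LSC. There 0 of 8 leukocyte markers and 0 of 8 antigen-presenting cell markers were detected. The 85 dry eye LSC* cells stood at 63.1 CPM. Control Wing*, with 12 cells, was likewise above control Squam, at 1446 CPM, against 165 in dry eye Wing*. Of 7 class I genes compared in LSC 1 was at least 1.5-fold higher and 0 lower. B2m was at 94.5 and 151 CPM (1.60, 1.33 to 1.93), H2-D1 at 198 and 263 (1.33, 1.17 to 1.52) and H2-K1 at 159 and 193 (1.21). Tap1 was at 0.811. B2m was the gene past 1.5-fold, on 142 and 646 UMIs. Without its 10 richest cells, 101 and 564 UMIs were left and its ratio was 1.97. That step took a larger share of the control cells and can raise a ratio by itself, so nothing is concluded from it. None of B2m, H2-D1 and H2-K1 passed the free RNA bound.

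In TAC1*, with 133 control and 473 dry eye cells, 4 of 8 class I genes were at least 1.5-fold higher and 0 lower (median 0.66), beside 15.6% of all genes higher and 14.6% lower. Psmb8 was at 31.2 and 94.7 CPM (3.03, 2.24 to 4.21), Psmb9 at 27.7 and 53.7 (1.93), B2m at 42.3 and 80.7 (1.91) and Tapbp at 32.6 and 54.3 (1.67). Of these, Psmb8 passed the free RNA bound. H2-D1 and H2-K1 had ratios of 1.49 and 1.41, and Tap1 and H2-Q4 were below 1, at 0.849 and 0.766. Gbp2 was at 8.32 and 16.5 CPM (1.98, 1.09 to 3.97) on 12 and 101 UMIs. The 5 listed LSC markers (Gpha2, Krt15, Ifitm3, Cd63 and Krt14) summed to 930 CPM in control TAC1* and 7295.5 in dry eye TAC1*. The part of this difference in the TAC1* ratios was not tested.

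Within the dry eye library, the asterisk classes were set beside the classes of the same name without it, as a description. The 5 LSC markers summed to 7295.5 CPM in TAC1* against 1578.5 in TAC1, and to 9364.8 in TAC2* against 3400.1 in TAC2. Their part in these ratios was not tested. Psmb8 was at 94.7 CPM in TAC1* and 34.9 in TAC1 (2.71, 2.38 to 3.1), and at 88.8 in TAC2* and 34.3 in TAC2 (2.59, 2.31 to 2.90). Gbp2 was at 16.5 and 3.98 CPM in TAC1* and TAC1 (4.15, 2.88 to 6.08), and at 15.4 and 4.62 in TAC2* and TAC2 (3.33, 2.48 to 4.49). Class I genes at least 1.5-fold higher were 3 of 8 in TAC1*, beside 10.4% of all genes (10.2% were as much lower), and 4 of 8 in TAC2*, beside 8.67% (18.5% lower). Of class I genes 0 were lower in TAC1*. Type I-type genes had 1 of 7 higher (Ifi27l2a, at 20.8 against 13.5 CPM) and 1 lower (Xaf1, at 5.73 against 12.8) in TAC1*, and 0 of 10 higher and 2 lower (Ifi27l2a and Usp18) in TAC2*.

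Wing* and Squam* had another pattern. Wing* had Cd274 at 20.9 CPM against 1.98 in Wing (10.6, 8.51 to 13.3) and B2m at 71.8 against 30.4 (2.36), while Psmb8 stood at 128 against 132 (0.962) and Isg15 at 6.95 against 10.4 (0.668). Type I-type genes were lower in 3 of 14 and higher in 1, beside 16.1% and 12.6% of all genes. Antigen-presenting cell markers summed to 9.75 CPM in dry eye Wing* and 0.239 in dry eye Wing, and leukocyte markers to 2.03 and 0.430. Their part in the Wing* ratios was not tested. Cd274 had 0 UMIs in Immune cells of either library. Those cells held only 35442 and 49982 UMIs of all genes, too few to read that 0 at such levels. Squam* had Isg15 at 41.5 CPM against 115 in Squam (0.360, 0.304 to 0.423), Irf7 at 45.9 against 123 (0.373), Irf1 at 217 against 430 (0.505) and Psmb8 at 386 against 589 (0.656). There 5 of 14 type I-type genes, 3 of 5 gamma-type genes and 3 of 8 class I genes were lower, beside 10.3% of all genes. Higher were 1 type I-type gene, Ifi27l2a at 4.40 against 1.12 (3.92, 2.04 to 7.18), and 1 class I gene, B2m at 75.8 against 39.8 (1.90), beside 32.1% of all genes, whose median was 0.31. LSC* had B2m at 68.6 CPM against 151 in LSC (0.453) and Tapbp at 94.0 against 45.7 (2.06), and 3 of 3 type I-type genes were lower, beside 33.8% of all genes. B2m was thus higher in 4 of the 5 asterisk classes and lower in LSC*.

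Cells with UMIs of several type I-type genes were counted to describe how these genes were spread over cells. Each cell was thinned to 3000 UMIs at random, shallower cells (1094 and 784) being set aside, and at least 5 of the 17 genes were asked for. There were 427 such cells among 16371 in control, 2.61% (2.37 to 2.86), and 266 among 15636 in dry eye, 1.70% (1.5 to 1.92). Cells chosen in this way held 23% of all type I-type UMIs in control and 16.6% in dry eye, while 51.5% and 54.5% of cells had no such UMI. The most members seen in 1 thinned cell were 12 in control and 13 in dry eye. At 1500 UMIs per cell the shares were 0.711% and 0.393%.

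By class, cells with at least 5 members were 9.84% (8.80 to 11) of control Squam cells and 6.45% (5.57 to 7.41) of dry eye Squam cells. In Conj they were 5.27% and 3.97%. In Wing they were 42 cells in control, 0.767% (0.553 to 1.04), and 7 in dry eye, 0.213% (0.0856 to 0.438). Basal had 3 such cells of 3729 in control and 1 of 2634 in dry eye, and TAC2 had 0 of 1355 and 0 of 1705, where 3 cells would make 0.221% and 0.176%.

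**Figure D4:**
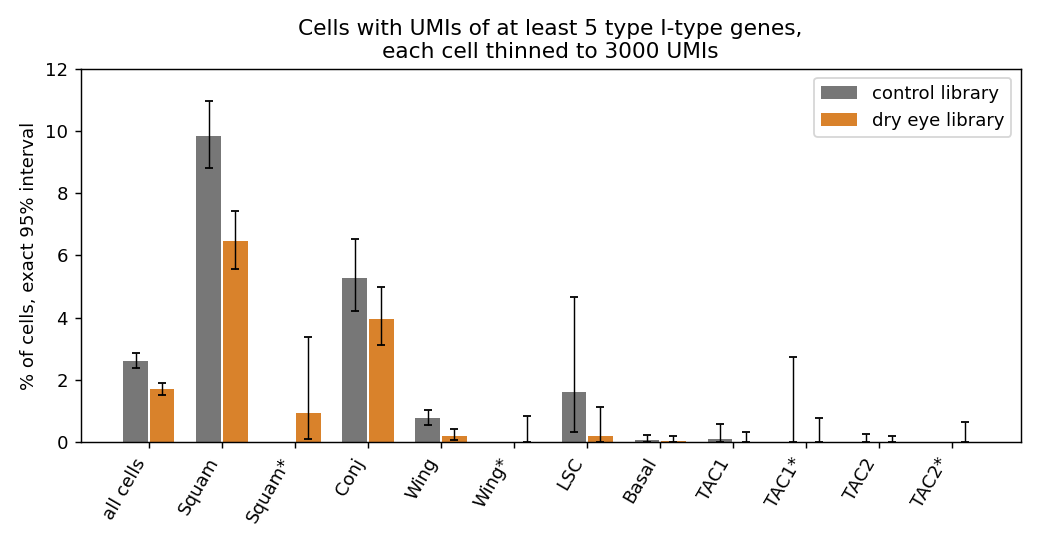
Share of cells with UMIs of at least 5 of the 17 type I-type genes after thinning to 3000 UMIs per cell, in percent, for all cells and for each class with at least 100 thinned cells in that library, with bars for the exact 95% interval. Squam stands at 9.84% in control against 6.45% in dry eye, and TAC classes are at or near 0.

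Gene by gene, thinned Squam cells with an Isg15 UMI were 30.6% in control and 23.8% in dry eye, and with an Ifit3 UMI 21.1% and 12.9%. For Cd274 they were 18.7% and 24.1%, and for Irf1 63.1% and 66.9%. In Basal cells, which had median totals of 5695 and 6126 UMIs against 9342.5 and 9518 in Squam, the thinned share with Isg15 was 0.778% and 0.797%, a level at or below which a share is read as background. Before thinning, Isg15 was seen in 55.4% and 48.2% of Squam cells.

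The variance of a gene's thinned counts over their mean, which is near 1 for counts scattered at random, was used to compare the groups. Its median was 1.32 in control and 1.38 in dry eye for type I-type genes, 1.29 and 1.24 for gamma-type genes and 1.12 and 1.18 for class I genes, beside 1.02 in both libraries for all genes. It was at least 1.5 for 8 of 17 type I-type genes in each library, beside 3.99% and 4.28% of all genes. The share of a gene's UMIs held by its 10 richest cells had a median of 4.97% and 5.86% for type I-type genes and 1.11% and 1.21% for class I genes, beside 2.11% and 2.31% for all genes. Within Squam alone the median of variance over mean for type I-type genes was 1.32 in control and 1.41 in dry eye. All genes had a median of 1.0 there in both libraries, so the type I-type median was above it within this class too. Ifi35, seen in 49.1% and 46.5% of all cells, lay at the other end, with 0.842% and 0.959% of its UMIs in 10 cells. The groups and all genes were not matched for level, on which both measures depend, so level and concentration are mixed in these comparisons.

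**Figure D5:**
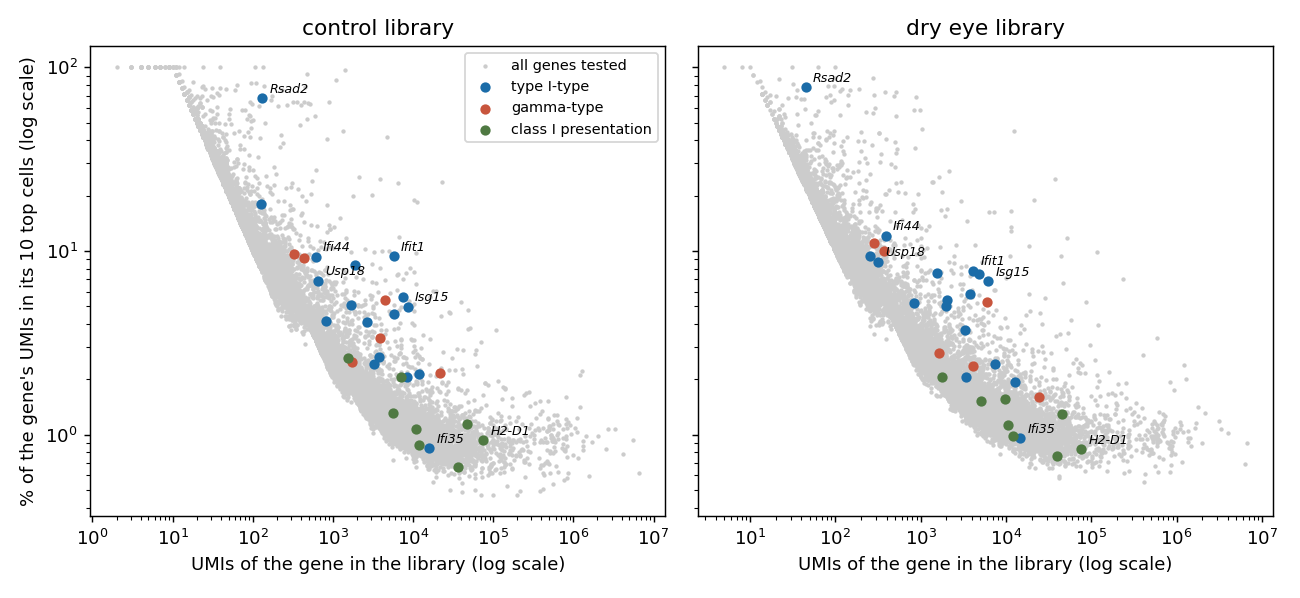
Percent of each gene's UMIs that lie in its 10 richest cells against the gene's total UMIs in that library, both on log axes, for control (left) and dry eye (right), with all compared genes in grey. Rsad2, at 67.9% and 77.8%, and several Ifit genes lie above most genes of the same total, while H2-D1 and Ifi35 lie among them.

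The rest of the pathway was read from lists of other genes, whose counts stand beside 7.94% of all genes higher and 5.87% lower over all cells, with a median of -0.07. None of the 10 listed interferon ligand genes were analysed here. Of 6 receptor genes 1 was at least 1.5-fold higher: Ifngr1, a chain of the gamma receptor, at 46.8 and 74.8 CPM (1.60, 1.56 to 1.64), with 38.9% of its dry eye UMIs in asterisk classes. Ifnar1 and Ifnar2, the chains of the type I receptor, had ratios of 0.991 and 1.19, and the lambda receptor chains Ifnlr1 and Il10rb 0.880 and 0.927. Of 10 JAK, STAT and IRF genes 0 passed (median -0.21). Stat2 and Irf9, which act together in the type I transcription complex, were at 7.33 and 5.25 CPM (0.716) and at 15.5 and 11.8 CPM (0.760), while the kinase Jak2 stood at 1.10.

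Of 7 inhibitors 2 were higher and 0 lower. Socs3, which blocks JAK signalling downstream of many cytokines, was at 1.0 and 8.2 CPM (8.18, 7.04 to 9.55), with 78.0% of its dry eye UMIs in asterisk classes, and Socs1 at 3.33 and 5.09 (1.53). Trim30a and Ptpn6 were lowest, at 0.735 and 0.810. Of 9 nucleic acid sensors 1 was higher, Tmem173, which encodes STING, on 17 and 139 UMIs (7.56), and Cgas, the enzyme upstream of it, was at 1.26. The RNA sensors Dhx58 and Ddx58 were at 0.749 and 0.813.

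Of 28 other type I-type targets 6 were higher and 2 lower (median -0.02). Ifitm3, which restricts virus entry and is also a limbal marker in the list used for LSC, was at 33.9 and 205 CPM (6.05), with 54.8% of its dry eye UMIs in asterisk classes. Oasl1 was at 45.4 and 93.2 CPM (2.05), with 7.17% in those classes. Lowest were Cmpk2, on 94 and 40 UMIs (0.394), and Ddx60, at 56.3 and 35.2 CPM (0.625, 0.607 to 0.644). Of 11 other gamma-type targets 2 were higher (Icam1, 1.97, and Socs1) and 3 lower (median -0.43), with Gbp8 at 0.521 and Gbp4 at 0.540. Icam1 had 82.0% of its 111 control UMIs in 10 cells. Of 15 other class I genes 1 was higher, H2-Q7, on 78 and 212 UMIs (2.51), beside H2-Q6 at 0.777. The Q genes resemble each other, so these values are uncertain. Calr, a chaperone of class I folding, was at 1.15 and H2-T23 at 0.817.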

How the data were processed

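The data were 2 single-cell libraries, 1 per group. Values in the deposited matrix were whole UMI counts without normalization, and a second deposited table gave each cell's library and class. Per the submitters' processing notes, Cell Ranger 6.0.1, Seurat 4 and the build mm10 were used, with no role or order given. Filters on cells and genes and the removal of doublets are not given in the sources used here.

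UMI counts were summed per library or class and divided by its total. Ratios had exact 95% Clopper-Pearson intervals from the split of both counts, shares had exact Clopper-Pearson intervals, and levels exact Poisson ones. All cover counting error only. Genes needed 50 UMIs over both libraries, and classes 100 cells in each for a comparison between libraries. The free RNA bound used the upper limit of a gene's UMIs per cell in the class, of at least 20 cells, with the fewest. A difference passed it if it held after that amount was taken off the higher library. No p-value was computed. Doublets were not called, and dropping the 5% of cells richest in UMIs was tried instead. Python 3.11.15, numpy 2.4.6, scipy 1.17.1, pandas 2.3.3 and matplotlib 3.10.9 were used. The interval calculation was tested on simulated Poisson counts, which hold no clustering of UMIs in cells.

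All 34 listed members were to be named, and of each list of other pathway genes the 2 highest and 2 lowest ratios, with Ifitm3, Stat2, Irf9, Ifnar1 and Ifngr1 among those taken whatever their values. Some genes that fall under this rule are not reported here. Members and lists were chosen with earlier results of these data known. Leukocyte, antigen-presenting, T and NK cell, melanocyte, stromal, endothelial, epithelial, LSC, TAC, Wing and Squam, and Conj markers were summed. Of other cell types over all cells, antigen-presenting markers were at 11.6 and 11.3 CPM in control and dry eye. T and NK cell markers were at 0.721 and 0.981, and melanocyte markers at 2.65 and 2.48. Stromal markers were at 3.16 and 1.71, and endothelial markers at 0.433 and 0.720. These last 4 sums rest on 6 of 8, 4 of 6, 2 of 7 and 2 of 6 listed genes, the others not being analysed here.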

Additional observations from a re-analysis of the deposited data

Results flagged for a closer look

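A pair of genes moved in opposite directions in different classes, with intervals on opposite sides of 1. Ifi27l2a had a ratio of dry eye over control of 3.22 (2.38 to 4.42) in Conj and of 0.464 (0.361 to 0.598) in LSC. Gbp2 had a ratio of 1.98 (1.09 to 3.97) in TAC1* and of 0.245 (0.160 to 0.371) in LSC. The difference between the classes was not tested in either case, since each group is 1 library. In LSC, the 10 control cells richest in Gbp2 held all of its UMIs there, and without the richest cells the ratio of Ifi27l2a was 0.893.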

How the results depend on the processing

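No paired analysis was possible because each group is 1 library. Over all cells, the median log2 ratio of type I-type genes (-0.30) was -0.25 without asterisk classes, -0.23 by the mean of CPM over cells and -0.23 scaled by the median ratio of all genes, a shift of -0.07. Their 1 higher gene became 0 when weighted to the control class shares, and their 6 lower genes became 3 by the mean over cells. At 2-fold, 0 were higher and 2 lower, and 0 gamma-type genes were lower. The gamma-type median (0.02) was 0.080 without asterisk classes, 0.12 by the mean over cells, 0.087 without the 5% of cells with the most UMIs, 0.090 scaled and -0.070 weighted to the control class shares, where its sign changed, and 1 gene was higher with a minimum of 10 UMIs. The class I median (-0.04) was -0.071 weighted, -0.0051 by the mean over cells and 0.034 scaled, where its sign changed. Without the 10 cells richest in each gene, LSC had 2 type I-type genes higher and 0 lower, 0 gamma-type lower and 2 class I higher. On the same step, Squam had 1 type I-type gene higher, Ifi27l2a at 1.53 on 15 and 23 UMIs. TAC1 had 2 type I-type and 1 gamma-type higher, TAC1* 2, 2 and 8 class I higher, TAC2 2 type I-type lower and 1 gamma-type higher, and Conj 1 gamma-type lower. That step takes a larger share of the smaller control classes, 10 of 133 cells in TAC1*. Scaled by the median ratio of the class, chosen after seeing the data, Wing had 3 type I-type genes lower and TAC2 1 gamma-type gene higher. Cells with at least 5 members were 0.711% and 0.393% when thinned to 1500 UMIs. Sparse genes (Rsad2, Ifit2, Iigp1 and Nlrc5) are limited by depth.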
